A study of Mus musculus with 5 samples.

Results

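The 10 genes described here, the transporter genes Slc6a13, Slc22a6, Slc22a8, Slc6a20a and Slc13a4, the transcription factor genes Foxc1, Foxd1 and Tbx18, the retinoid-binding gene Crabp2 and the connexin gene Gjb2, were chosen by symbol as genes known from the leptomeninges. All 10 were found among the 23420 gene symbols of each library and serve as a gauge of meningeal tissue carried on the dissected dentate gyrus (DG). The rule that chose them uses no values of these libraries, but the list was drawn up with earlier results of these data known. How often the 10 genes were called, set beside all genes, is therefore a description. Of the 10 genes, 9 reached 5 or more for the mean of their regularized log values, as did 13550 of all genes, here called expressed genes. The exception was Foxd1, with a mean of 4.62.

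RNA was sequenced from the DG of wild-type male mice of the outbred CD1 strain, aged 4 months by the labels, which were housed for 4 weeks in one of the conditions compared. LD mice lived singly with a locked disk, CE mice lived in groups with a locked disk and tunnels that were moved daily, and RUN mice lived singly with a running disk. L-RUN and H-RUN were the runners with the shorter and the longer running distances. LD, CE and RUN were each 1 library of RNA pooled from 8 mice, L-RUN and H-RUN each 1 library from 4 mice, and RUN held the same 8 mice that made up L-RUN plus H-RUN. All mice were perfused with buffered saline before the DG was dissected, and polyadenylated RNA was sequenced. With 1 library per group there was no replicate, and no test or p-value between groups could be made.

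The leptomeninges, the arachnoid and the pia, enclose the brain and follow its surface into fissures such as the one that lies against the DG. Their fibroblasts lay down collagen, make retinoic acid and carry transporters that move organic anions, amino acids and inorganic ions between cerebrospinal fluid and tissue. Forkhead and T-box transcription factors mark the lineage of these cells and of the mural cells of vessels, and connexins join the cells by gap junctions. Several of these genes are not private to the meninges: organic anion transporters also lie in brain endothelium and choroid plexus, and Foxc1 and Tbx18 are also known from vessel wall cells.

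The deposited values were regularized log values, which are log2 values of normalised read counts shrunken towards each gene's mean, most strongly where counts are low. A difference between libraries on this scale therefore understates the change of a gene with few reads. The number of reads per library is unknown, so no counting error can be given. The RUN library gave the only measure of error, since its value can be set against a computed mixture of its parts, L-RUN and H-RUN in equal amounts. From this residual, a technical SD was derived for the difference of a pair of libraries, which was 0.0365 over all expressed genes and 0.025 to 0.047 at the levels of the 10 genes. It covers the handling and sequencing of libraries made from pooled RNA. RUN shares its mice, dissections and RNA extractions with L-RUN and H-RUN, so the technical SD leaves out how these differ. A gene was called higher or lower where it differed by 0.3 or more in either direction, which is 1.23-fold.

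All 10 genes were highest in L-RUN and RUN came next for every one of them, while LD, CE and H-RUN lay close together. Against LD, 6 of the 10 genes were called higher in L-RUN, 4 in RUN, 0 in CE and 0 in H-RUN, and none was called lower in any library. Among the 13550 expressed genes, 0.797% were called higher in L-RUN, 0.362% in RUN, 0.332% in CE and 0.354% in H-RUN. For lower values the same shares were 2.33%, 0.952%, 0.266% and 0.472%. Among the 4898 genes whose mean lay between those of Foxd1 and Slc22a8, the lowest and the highest of the 10, the shares called higher were 0.796% in L-RUN, 0.367% in RUN, 0.225% in CE and 0.163% in H-RUN. These 4 comparisons share the LD library.

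The median difference of the 10 genes from LD was 0.36 in L-RUN and 0.18 in RUN, against medians of -0.0018 and -0.0013 over all expressed genes. In CE it was 0.041 and in H-RUN -0.0056. All 10 genes lay more than 3 technical SDs above LD in L-RUN and 7 of them did so in RUN. In H-RUN all 10 were within 2 technical SDs of LD, and 8 within 1. In CE 9 were within 2 technical SDs. The shares of all expressed genes within or beyond these limits are not given, so these counts describe the 10 genes alone. Over all expressed genes, differences from LD had an SD of 0.13 in L-RUN, 0.10 in RUN, 0.095 in CE and 0.089 in H-RUN. Each exceeds the technical SD of 0.0365. Tbx18 and Foxd1, both past 3 technical SDs in L-RUN, ranked 1108th and 1381st of 13550 by their rise. Against H-RUN, L-RUN was called higher for 5 of the 10 genes, with a median of 0.32, where 0.561% of expressed genes and 0.857% of genes in the same range of levels were called higher and 0.974% of expressed genes lower. In bulk tissue, the number of cells of a type and the RNA per cell cannot be told apart: a higher value may come with more such cells or with more RNA in each, and a lower value with fewer cells or less RNA per cell.

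**Figure D1:**
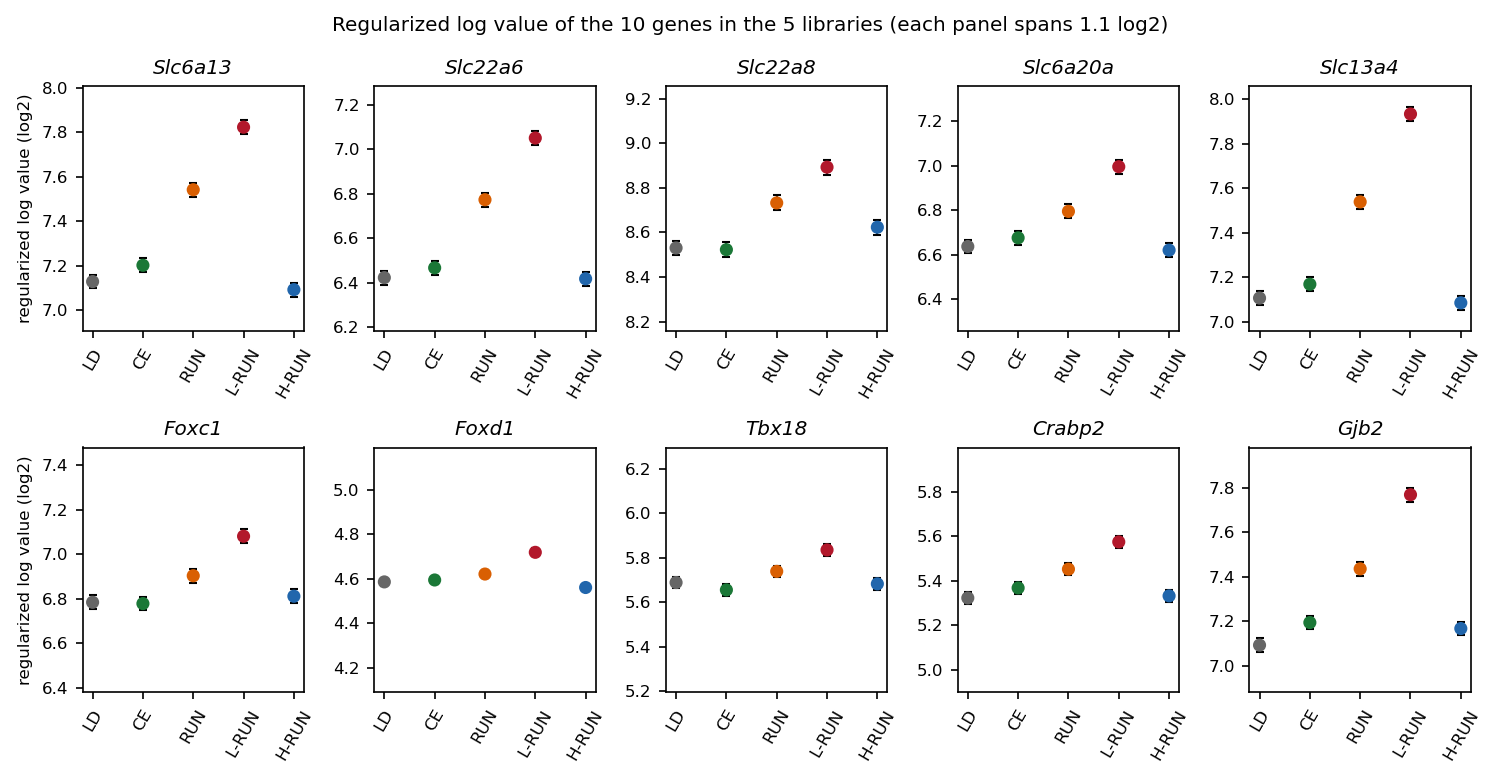
Regularized log value (log2) of each of the 10 genes in the LD, CE, RUN, L-RUN and H-RUN libraries, 1 point per library, 1 panel per gene, with the same vertical span in every panel but different limits. The bar on each point is the technical SD of a single library at that gene's level. L-RUN is the highest point and RUN the second highest in 10 of 10 panels.

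The members called higher in both RUN and L-RUN were Slc13a4, Slc6a13, Slc22a6 and Gjb2. With a baseline averaged from LD and CE, Gjb2 stood at 0.29 in RUN and was no longer called there, which left 3. The stretch of 300 bases around the start of each, from 250 before to 50 after it in the direction of transcription, is printed because these members carry the largest differences. They are RefSeq sequences on GRCm38.p6, written 5′ to 3′ on the strand of the gene, at chr6:35308077-35308376 (minus strand) for Slc13a4, chr6:121300038-121300337 (plus strand) for the most upstream of 3 starts of Slc6a13, chr19:8617746-8618045 (plus strand) for Slc22a6 and chr14:57104653-57104952 (minus strand) for Gjb2. Capitals mark a match to one of the motifs searched, which here is the core motif of retinoic acid receptors alone.
Slc13a4: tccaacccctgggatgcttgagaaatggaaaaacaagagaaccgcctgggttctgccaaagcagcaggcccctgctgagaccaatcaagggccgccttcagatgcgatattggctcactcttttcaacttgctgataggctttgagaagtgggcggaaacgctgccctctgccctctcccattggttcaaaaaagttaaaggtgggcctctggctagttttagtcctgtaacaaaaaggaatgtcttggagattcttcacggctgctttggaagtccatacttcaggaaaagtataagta
Slc6a13: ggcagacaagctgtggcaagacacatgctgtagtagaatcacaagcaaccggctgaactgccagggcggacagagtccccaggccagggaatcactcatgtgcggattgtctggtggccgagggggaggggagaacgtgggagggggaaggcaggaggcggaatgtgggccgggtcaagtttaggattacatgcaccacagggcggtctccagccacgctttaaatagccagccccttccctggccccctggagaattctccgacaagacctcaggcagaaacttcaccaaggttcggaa
Slc22a6: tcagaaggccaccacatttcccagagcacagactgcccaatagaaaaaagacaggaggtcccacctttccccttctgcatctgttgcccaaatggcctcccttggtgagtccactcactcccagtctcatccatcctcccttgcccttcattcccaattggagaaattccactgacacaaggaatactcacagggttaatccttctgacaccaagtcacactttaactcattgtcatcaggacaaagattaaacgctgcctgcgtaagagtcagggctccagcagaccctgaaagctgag
Gjb2: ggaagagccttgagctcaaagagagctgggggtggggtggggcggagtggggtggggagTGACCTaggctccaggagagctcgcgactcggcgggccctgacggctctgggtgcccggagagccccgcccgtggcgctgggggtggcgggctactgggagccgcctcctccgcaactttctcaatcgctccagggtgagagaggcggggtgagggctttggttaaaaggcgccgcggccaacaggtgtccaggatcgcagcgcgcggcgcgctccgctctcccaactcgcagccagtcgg
Of the 10 genes, 9 had a promoter in this set of 32851, with 11 promoters in all, and Crabp2 had none. Searched on both strands, the forkhead motif TGTTTAC was in 0 of the 9 and in 3.65% of all promoters, the T-box motif GGTGTGA in 0 of the 9 and 3.98% of all, and the TATA box TATAAA in 0 of the 9 and 13.6% of all. The receptor core motif AGGTCA was in 2 of the 9, in Gjb2 at -191 to -186 from the start and in the third promoter of Slc6a13 at -224 to -219, both on the strand opposite to the gene, and in 16.3% of all promoters. The promoter of Gjb2 had a GC content of 70% with 27 CpG sites, and that of Slc13a4 48.7% with 6, where the median of all promoters was 52.7% and 7 sites. Members were counted by gene, with a match in any of their promoters, while the percentages count single promoters. A match is a string of letters in this window and says nothing of a bound factor.

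Slc13a4, which carries sulfate into cells together with sodium, had the largest difference of the 10. The gene lies at chr6:35267957-35308131 on the minus strand of GRCm38. Its value was 7.11 in LD, 7.17 in CE and 7.09 in H-RUN, against 7.54 in RUN and 7.93 in L-RUN. LD, CE and H-RUN lay within 0.084 of each other, and L-RUN stood apart from them. The difference from LD was 0.83 in L-RUN (1.77-fold, 18.9 technical SDs) and 0.43 in RUN, and only 4 expressed genes had a larger rise in L-RUN.

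Slc6a13, a carrier of gamma-aminobutyric acid and taurine in the plasma membrane (chr6:121300227-121337733, plus strand), had values of 7.13 in LD, 7.20 in CE and 7.09 in H-RUN, against 7.54 in RUN and 7.82 in L-RUN. L-RUN exceeded LD by 0.69 and H-RUN by 0.73, and RUN exceeded LD by 0.41. It held the 10th rank among expressed genes by the rise in L-RUN. Slc6a20a, which carries proline and other imino acids and lies on another chromosome (chr9:123634770-123678885, minus strand), showed a smaller difference with the same order at the top. It was at 6.64 in LD, 6.68 in CE and 6.62 in H-RUN, against 6.79 in RUN and 6.995 in L-RUN, so that L-RUN was higher than LD by 0.36, while RUN, higher by 0.16, was not called. Its paralog next to it, Slc6a20b, had a mean value of -0.58, near the lowest of the scale, and reads that fit both copies could not be followed in these values.

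Slc22a6 and Slc22a8, which exchange organic anions such as drugs, metabolites and signalling acids across barriers, are neighbours on chromosome 19 with 6160 bases between them (chr19:8618039-8628299 and chr19:8591254-8611835, both on the plus strand). Slc22a6 was at 6.42 in LD, 6.47 in CE and 6.42 in H-RUN, against 6.77 in RUN and 7.05 in L-RUN. Slc22a8, the most abundant of the 10, was at 8.53 in LD, 8.52 in CE and 8.62 in H-RUN, against 8.73 in RUN and 8.89 in L-RUN. Both had the same order at the top, but the difference of L-RUN from LD was 0.63 for Slc22a6 and 0.36 for Slc22a8, with technical SDs of 0.044 and 0.047. Slc22a8 was also the member farthest from LD in H-RUN, by 0.093, which is within 2 technical SDs. A noncoding RNA gene of RefSeq, Gm36394, overlaps both loci, and the strand setting of the counting is not given in the sources used here.

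**Figure D2:**
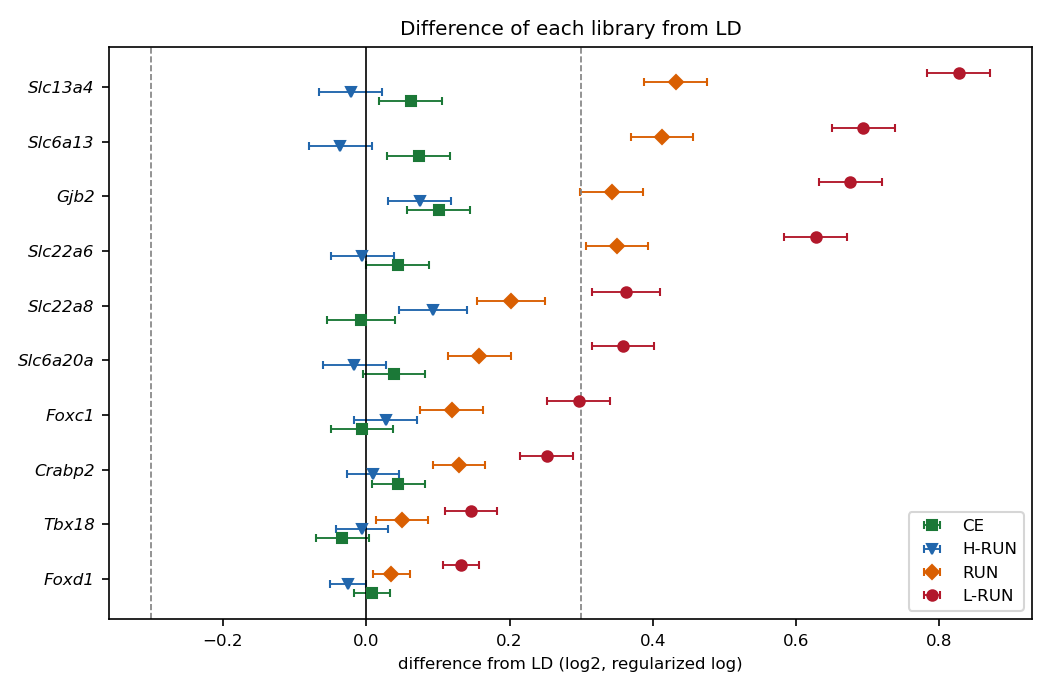
Difference from LD (log2) of each of the 10 genes in CE, RUN, L-RUN and H-RUN, with bars of 1 technical SD of a difference and dashed lines at the threshold of 0.3. L-RUN passes the threshold for 6 genes and RUN for 4, and the points of CE and H-RUN lie near 0.

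The transcription factor genes shared the order and had small differences. Foxc1, a forkhead factor needed for the meninges to form (chr13:31806633-31812476, plus strand), was at 6.78 in LD and in CE and 6.81 in H-RUN, against 6.90 in RUN and 7.08 in L-RUN. Its difference of 0.30 in L-RUN stood just under the threshold and was 6.78 technical SDs. Tbx18, a T-box factor of mural cells and meningeal fibroblasts (chr9:87702800-87731260, minus strand), was at 5.69, 5.66, 5.74, 5.84 and 5.68 in LD, CE, RUN, L-RUN and H-RUN, with a difference of 0.15 in L-RUN (3.99 technical SDs). Foxd1, a forkhead factor of stromal cells (chr13:98354242-98359305, plus strand), was at 4.59, 4.59, 4.62, 4.72 and 4.56, with a difference of 0.13. For Foxd1 and Tbx18, RUN stood above the next library by less than 2 technical SDs. The median difference of the 3 transcription factor genes in L-RUN was 0.15, and that of the 5 transporter genes 0.63.

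Crabp2, which hands retinoic acid to its receptor in the nucleus (chr3:87948666-87953376, plus strand), was at 5.32 in LD, 5.37 in CE and 5.33 in H-RUN, against 5.45 in RUN and 5.58 in L-RUN. The difference of 0.25 in L-RUN was not called. Crabp2 has the shortest transcript of the 10, with 931 bases, and differences of L-RUN from LD fell with transcript length over all genes (Spearman's rho -0.513 across genes, which are not replicates). The same trend was present against LD in RUN (-0.493), H-RUN (-0.367) and CE (-0.326), and between L-RUN and H-RUN (-0.343). With the trend removed, the differences of Crabp2 were 0.14 in L-RUN and 0.049 in RUN, while Foxc1 stood at 0.36 and passed the threshold in L-RUN.

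Gjb2, a gap junction protein of meningeal cells (chr14:57098600-57104702, minus strand), was at 7.09 in LD, 7.19 in CE and 7.17 in H-RUN, against 7.44 in RUN and 7.77 in L-RUN. The difference from LD was 0.68 in L-RUN and 0.34 in RUN. In CE it was 0.10, the largest of the 10 genes in that library and the only one beyond 2 technical SDs. Gm32912, a noncoding RNA gene of RefSeq, overlaps Gjb2, and how the counting handled reads that fit both is not given in the sources used here.

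Set side by side, the levels of a gene in L-RUN and RUN differed by 2.63 to 9.02 technical SDs. RUN exceeded the next library by at least 2 technical SDs for 8 of the 10 genes, and the 3 lowest libraries spanned less than 2 technical SDs for 7 of them. H-RUN was the lowest library for 5 genes, CE for 3 and LD for 2, an order that thus rests on small gaps for most genes. L-RUN was highest and RUN second for 11.9% of expressed genes and for 12.1% of genes in the same range of levels. RUN shares its mice with L-RUN, so its second place is not a separate observation. Per kilobase of the longest transcript, the mean regularized log level was highest for Slc22a8 (6.88), followed by Slc6a13 (6.20) and Gjb2 (6.06), and lowest for Tbx18 (3.49) and Foxd1 (2.28).

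The differences also depend on the level, since the regularized log shrinks low values. The spread of the L-RUN difference among genes within 0.5 of a member's mean level was an SD of 0.048 around Foxd1 and 0.14 around Slc22a8. Within such a window, a comparison chosen after the values were seen, Slc13a4 ranked 1st of 1325 genes by its rise, Slc22a6 1st of 1056, Slc6a20a 7th of 1076 and Crabp2 7th of 934. Foxd1 ranked 14th of 888 and Tbx18 30th of 980, although their differences were the smallest of the 10.

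**Figure D3:**
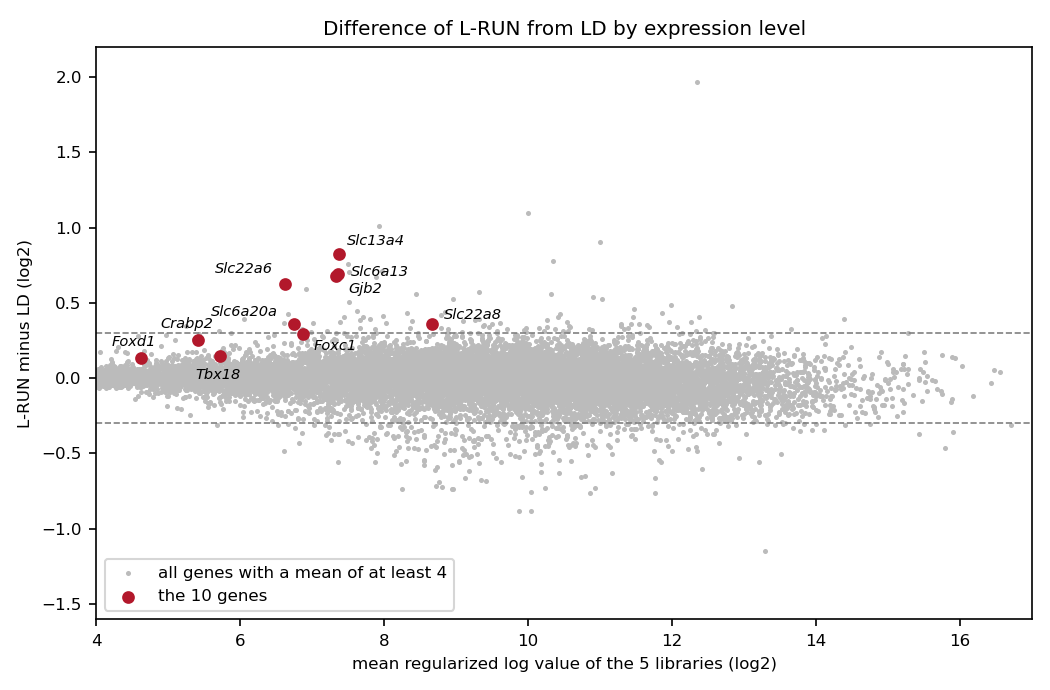
Difference of L-RUN from LD (log2) against the mean regularized log value over the 5 libraries, with 1 point per gene for genes with a mean of at least 4 and the 10 genes in red. Dashed lines mark the threshold of 0.3. All 10 lie above 0, and the cloud of all genes is narrowest at low levels, where Foxd1, Crabp2 and Tbx18 lie.

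RUN was made from the mice of L-RUN and H-RUN, and each of the 10 genes can be checked against them mixed in equal amounts. RUN was lower than L-RUN and higher than H-RUN for 10 of 10 genes, as it did for 58.3% of expressed genes. Its value minus that of the mixture ran from -0.063 for Gjb2 to 0.038 for Slc6a13, with a median of -0.024. The residual was within 1 SD of the residual for 7 genes and within 2 SDs for all 10. Expressed as the share of L-RUN in RUN, it ran from 32.1% for Foxc1 to 55.4% for Slc6a13, with a median of 41.4%.

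**Figure D4:**
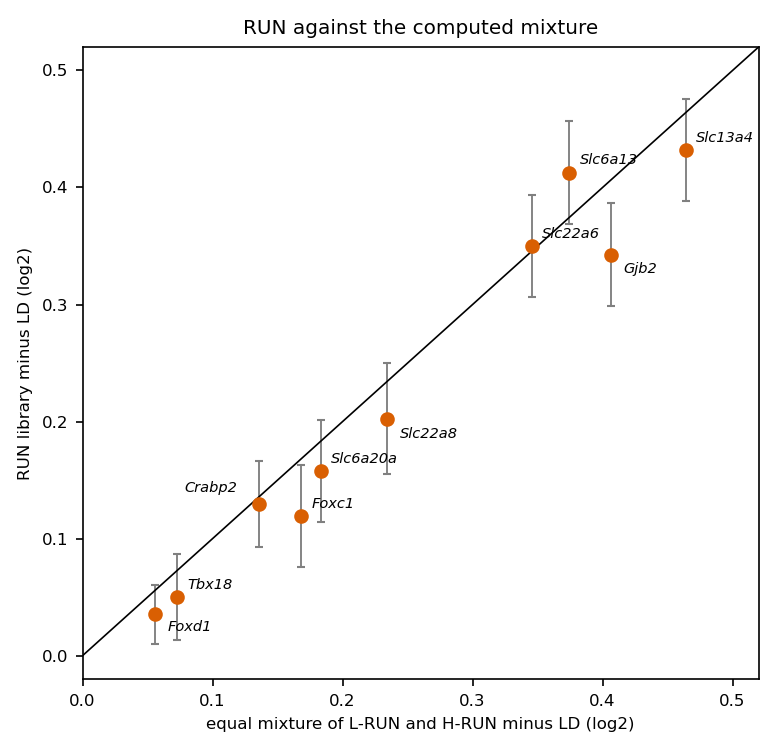
Difference of RUN from LD (log2) against the difference from LD of the mixture computed from equal amounts of L-RUN and H-RUN, with 1 point for each of the 10 genes and a line of equality. The residuals run from -0.063 to 0.038.

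A list of 20 other markers of leptomeningeal and perivascular fibroblasts, mostly matrix and signalling genes, was set beside the 10 genes. Like the other lists, it was chosen with earlier results of these data known, so its values are a description. In L-RUN 13 of the 20 were called higher and 0 lower (median 0.39), where 0.797% of expressed genes were called higher. In RUN these counts were 8 and 0, with a median of 0.19 and 0.362% of expressed genes called higher. Ptgds, which makes prostaglandin D, was higher by 1.97 in L-RUN, the growth factor gene Igf2 by 1.096 and the collagen-binding proteoglycan gene Fmod by 1.01. The sum of the 20 markers on the linear scale, to which Ptgds as the most abundant adds the most, was 9679.9 in LD, 11121 in CE and 9067 in H-RUN, against 15849 in RUN and 22103 in L-RUN. The sum of the 10 genes on the same scale was 1195 in LD, 1222 in CE and 1222 in H-RUN, against 1433 in RUN and 1691 in L-RUN. Both sums were highest in L-RUN, and in both the log2 difference of L-RUN from LD was the largest, at 1.19 and 0.50.

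In CE 4 of the 20 markers were called higher, the collagen genes Col1a2 (0.45) and Col1a1 (0.39), the proteoglycan gene Dcn (0.37) and Ptgds (0.30), which are named for their values, with a median of 0.12 for the list. None of the 10 genes was called there, where 0.332% of expressed genes were called higher. In H-RUN the median of the list was -0.0091, beside -0.0056 for the 10 genes, 0 markers were called higher and 2 lower. These 2 were the proteoglycan genes Ogn and Dcn, also named for their values, which fell by 0.68 and 0.52. Over all expressed genes, 0.472% were called lower in H-RUN.

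Markers of other cells set the background of the dissection. In the arachnoid barrier list 4 of 10 genes were expressed and 0 of the 4 were called in L-RUN, with a median of -0.016. The largest differences there were those of Slc16a11 (0.19), Abcg2 (-0.045) and Cldn11 (-0.027). The summed level of the list, to which Alcam as the most abundant adds the most, was 5021 to 5288 across libraries. With 4 of 10 genes expressed, the list does not show whether the content of arachnoid barrier cells differed. Of the list genes below the expressed level, named apart from the rule for list genes, Cdh1 (mean 4.05, technical SD 0.025) was 0.17 higher in L-RUN. The others had 0.017 (Dpp4), 0.010 (Krt18), 0.0056 (Krt8), -0.0027 (Tjp3) and -0.020 (Cldn1). In the choroid plexus list 5 of 16 were expressed and 0 of the 5 were called in L-RUN. The summed level, to which Enpp2 as the most abundant adds the most, ran from 2350.1 in L-RUN to 2582 in CE. The folate receptor gene Folr1 and the transcription factor gene Otx2, defining markers of that tissue named apart from the rule for list genes, had mean values of 2.42 and 2.30, and Ttr, the transthyretin gene, was higher by 0.62 in CE and by 0.13 in L-RUN. Enpp2 and Prlr of the same list had -0.11 and 0.11 in L-RUN. The 12 endothelial markers had a median of -0.030 in L-RUN with 0 called higher and 1 lower, the growth factor receptor gene Flt1 (-0.43), while Ly6c1 had 0.20 and Kdr -0.19. The 11 expressed markers of pericytes and smooth muscle had a median of -0.00011 with 1 called higher, the matrix protein gene Vtn (0.43), while the smooth muscle actin gene Acta2 had 0.24 and Abcc9 -0.20. The blood globin genes Hba-a1 and Hba-a2 were at 0 in all libraries, and Hbb-bs and Hbb-bt were not among the gene symbols. Globin values therefore give no gauge of blood in the tissue.

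Markers of the neighbouring pyramidal cell fields were lower in L-RUN, where 2.33% of expressed genes were called lower. Of 12 markers of CA1 and CA3 pyramidal cells, the neurons that border the DG, 7 were called lower in L-RUN and 0 higher, with a median of -0.32, and their sum was 10727 against 12999 in LD and 13238 in H-RUN. The largest differences were those of Fibcd1 (-0.46), Pou3f1 (-0.42) and Prkcd (-0.37), of which Fibcd1 was also lower in H-RUN, at -0.52. The 12 markers of dentate granule cells had a median of -0.12 in L-RUN and -0.14 in CE. In L-RUN 1 was called higher, C1ql2 (0.37), and 1 lower, the transcription factor gene Prox1 (-0.41), with Npnt next at -0.28, and the list had a summed level of 46133 to 50942 across libraries. The 9 astrocyte markers had a median of -0.083, with Gjb6 called higher (0.34) and the glutamate carrier genes Slc1a2 (-0.36) and Slc1a3 (-0.30) lower. The ependymal list had 2 expressed genes, Foxj1 and Rsph1, both 0.18 above LD in L-RUN. The part of these shifts in the values of the 10 genes was not tested. The groups and the dissections cannot be told apart, since each group is 1 library.

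**Figure D5:**
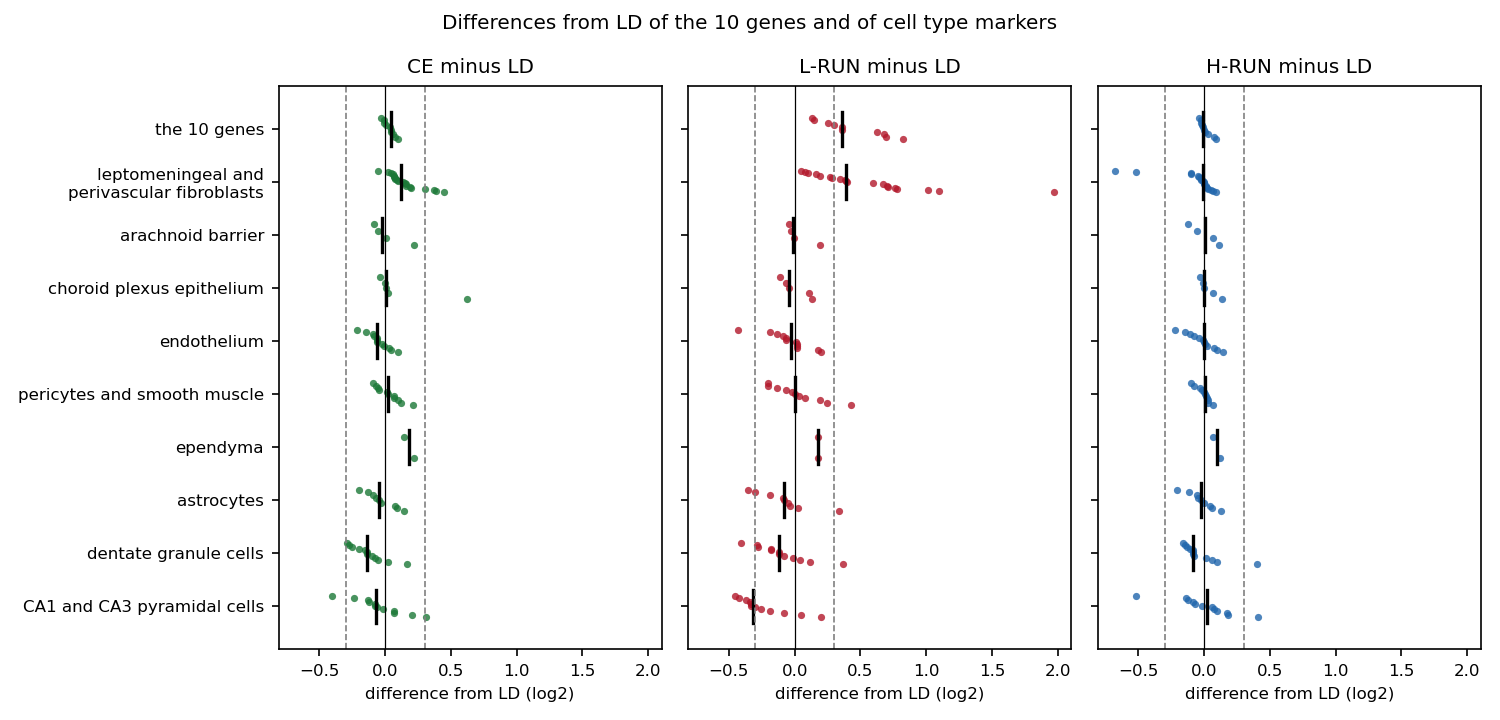
Difference from LD (log2) of the 10 genes and of the genes of each marker list, in separate panels for CE, L-RUN and H-RUN. Each point is a gene, black bars mark medians and dashed lines the threshold of 0.3. List genes are shown where they were expressed (mean of 5 or more). The medians of the 10 genes and of the leptomeningeal and perivascular fibroblast list lie at 0.36 and 0.39 in L-RUN, and that of the CA1 and CA3 list at -0.32.

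Crabp2 belongs to the retinoid pathway, of which 16 other genes were expressed. Their median difference in L-RUN was 0.044, and 0 were called lower. Aldh1a2, the retinoic acid synthesising enzyme of the meninges, was higher by 0.76 and is also on the fibroblast list. Cyp26b1, which degrades retinoic acid, had a difference of -0.22 in L-RUN and was called lower in CE, at -0.48.

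Among 17 other expressed genes of barrier and organic anion transport, 1 was called higher in L-RUN and 1 lower, with a median of -0.069. The former was Slc47a1, which extrudes organic cations and also stands on the fibroblast list (0.35), and the latter the peptide carrier gene Slc15a2 (-0.42). Slc29a4, a monoamine carrier gene, had 0.19. The families of the 10 genes gave few calls in L-RUN. Of 9 other expressed Slc6a genes 0 were called in L-RUN, with a median of -0.11. Slc6a12, Slc6a11 and Slc6a17 differed most, at 0.26, -0.24 and -0.18. Of 6 other expressed Slc22a genes 0 were called, and Slc22a5, Slc22a17 and Slc22a21 led with 0.18, 0.15 and 0.026. Of the 2 expressed Slc13a genes, Slc13a3, a dicarboxylate carrier, was called higher at 0.43, and Slc13a5 had -0.13. Of 18 other forkhead genes 0 were called higher and 2 lower, Foxo3 (-0.35) and Foxn3 (-0.32), with Foxk1 next at -0.27. Of 4 other expressed genes with symbols that begin as T-box genes do 0 were called, with Tbx6 at 0.17, Tbx3 at -0.029 and Tbxas1, an enzyme gene caught by its symbol, at -0.034. Of 8 other expressed connexin genes 1, Gjb6, was called higher at 0.34, while Gjc3 had -0.16 and Gjb1 -0.096.

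The genes whose 4 differences from LD lay nearest to the medians of the 10, by root mean square distance over 4 differences that share LD, were Slc47a1 (0.018), Itih2 (0.027), Npy (0.031), Col9a2 (0.034) and Vim (0.037), followed by Lyz2, Cpne8, Slc13a3, Vtn and Thbd. Itih2 encodes a chain that binds hyaluronan, Npy a neuropeptide, Col9a2 a collagen chain and Vim the intermediate filament vimentin. Slc47a1 had regularized log differences of 0.045 for CE, 0.17 for RUN, 0.35 for L-RUN and 0.025 for H-RUN. Npy, at a mean of 10.2, had 0.32 in L-RUN and -0.0016 in H-RUN. All 10 nearest genes were between 0.28 and 0.43 higher in L-RUN than in LD. They were selected for this likeness, so their values are a description.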

How the data were processed

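The 5 groups of mice gave 1 library each of pooled DG RNA. Reads were called with CASAVA 1.8.2, mapped to mm10 with TopHat2 2.0.10 and counted on RefSeq genes with HTSeq, and DESeq2 1.10.1 normalised all libraries at once, by the submitters' processing notes and the methods of the study. The authors deposited regularized log values on the log2 scale, 1 per symbol and library, and these were used as they are. The shrinkage depends on counts that were not used here and could not be undone, so no count model was fitted. Depth is unknown.

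Values were compared as differences, with a call at 0.3, and expressed genes had a mean of at least 5. The technical SD came from RUN against log2 of the linear mean of L-RUN and H-RUN, by the median absolute deviation per decile of level (for Foxd1, genes with a mean from 4 to 5). It takes both parts as equal. Positions and transcript lengths were from GENCODE M21 (GRCm38) by symbol, with a length for 94.2% of expressed genes, and promoters from RefSeq (GRCm38.p6). A lowess curve (fraction 0.3) removed the length trend.

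Genes to be named were the 10 genes, the 10 genes with the nearest profiles, the 3 genes of each list with the largest L-RUN difference and the chromosomal neighbours, of which some are left out. Others are named for their values or as defining markers, as stated. A result of the retinoid list that this rule would name is not reported here. The members and all lists were chosen with earlier results of these data known. Alternatives were other thresholds and minimum means, median centring, quantile normalisation, a baseline averaged from LD and CE, a log mean for the mixture and removal of the length trend. Scripts were tested on simulated data. Tables were handled with pandas 2.3.3 and numpy 2.4.6 in python 3.11.15, the lowess curve came from statsmodels 0.14.6, rank correlations from scipy 1.17.1 and plots from matplotlib 3.10.9.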

Additional observations from a re-analysis of the deposited data

Results flagged for a closer look

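For 6 of the 10 genes, L-RUN lay above LD while H-RUN lay below it, so the pools of runners with the shorter and the longer distances lay on opposite sides of LD. The value of L-RUN exceeded that of H-RUN by 0.73 for Slc6a13, 0.63 for Slc22a6, 0.37 for Slc6a20a, 0.85 for Slc13a4, 0.16 for Foxd1 and 0.15 for Tbx18. This difference was not tested, since each pool was 1 library. The fall below LD in H-RUN was at most 0.036, for Slc6a13, and for these 6 genes it was within 1 technical SD.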

How the results depend on the processing

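No direction of a called value reversed under the alternatives run. At a threshold of 0.4, 2 of the 10 genes were called higher in RUN, against 4 at 0.3. At a threshold of 0.2, 8 were called higher in L-RUN than in H-RUN, against 5. A minimum mean of 7 kept only Slc13a4, Slc6a13, Slc22a8 and Gjb2. Of these, 3 were called between L-RUN and H-RUN. Their medians were 0.38 in RUN, 0.685 in L-RUN and 0.67 between L-RUN and H-RUN, since the genes with low levels drop out. Median centring and quantile normalisation each moved 0 of 50 single differences by more than 1 technical SD, a baseline averaged from LD and CE moved 3 of 30, all of Gjb2, which lost its call in RUN (0.29, leaving 3 genes called), and removal of the length trend 11 of 50. Leaving out a library of a group was not possible, because each group was 1 library. No paired analysis was possible because each group was 1 library. The unknown depth and the shrinkage limit what Foxd1, Crabp2 and Tbx18 can show.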

Other observations

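Of the genes next to the 10 on their chromosomes, Slc6a12, a betaine carrier gene 4852 bases from Slc6a13, was 0.26 higher in L-RUN and -0.0024 from LD in H-RUN, and Fam180a, 4616 bases from Slc13a4, was 0.18 higher in L-RUN. Gjb6, 18598 bases from Gjb2 and a connexin gene of astrocytes, was 0.34 higher in L-RUN and 0.13 in H-RUN. Against these, Chrm1 beside Slc22a6 had -0.086 in L-RUN, Lztfl1 beside Slc6a20a -0.14, Gmds beside Foxc1 -0.060, Foxf2 beside Foxc1 -0.019, Nes beside Crabp2 -0.11 and Gja3 beside Gjb2 -0.028.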
